A study of Nematostella vectensis with 9 samples.

Results

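The 278 gene models described here were chosen by their levels in embryos of a sea anemone, Nematostella vectensis, where all 6 libraries from 2 perturbations lay below all 3 control libraries. The level was CPM, the count of a model divided by the library's summed count over gene models and multiplied by 1e+06. A model was taken when its dextran mean was at least 5 CPM, when its highest level over the BMP24 KD and DnTCF libraries was below the lowest dextran library, and when its mean in each perturbed group was at most 50% of the dextran mean. Of 21946 models with a count in some library, 11240 had a dextran mean of at least 5 CPM, and the 278 were 2.47% of those and 1.27% of all models. The BMP24 KD libraries alone met the conditions for 618 models, or 5.5% of the 11240, and the DnTCF libraries alone for 402, or 3.58%. Turned round, 72 models had all 6 perturbed libraries above all 3 dextran libraries and both perturbed means at least 2 times the dextran mean. The limit of 5 CPM lay there on both perturbed means and not on the dextran mean. The counts of 72 and 278 are therefore not drawn from the same models, and their difference was not tested. Both perturbations were set against the same 3 dextran libraries, so a dextran library that happened to be high for a model raised its chance of entering through both. The differences from dextran below are therefore descriptions of what the choice used, and no test of them is taken as support.

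The perturbed embryos carried a morpholino against NvBMP2/4 (BMP24 KD) or RNA for a dominant negative NvTCF (DnTCF), and the control embryos received dextran, with 3 libraries per group. A morpholino is an artificial nucleic acid analog that pairs with an RNA and stops its translation or its splicing, and dextran is an inert polysaccharide. The control held no nucleic acid, so a response to any injected nucleic acid cannot be told apart here from the response to the target. All samples were RNA from animals raised at 17 °C in diluted seawater and taken 24 h after fertilization, and they were enriched for poly-A RNA and read as single ends of 50 bp. The design text describes the 3 samples of a group as biological replicates. It does not say whether they came from separate spawnings, so the spread within a group may be partly technical. In whole-animal RNA, fewer cells of a type and less RNA per cell cannot be told apart.

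BMP2/4 belongs to the bone morphogenetic proteins, which are released from cells as ligands. They bind receptor kinases at the cell surface, which phosphorylate SMAD proteins that enter the nucleus and regulate target genes, and secreted antagonists such as Chordin bind the ligand outside the cell. In Nematostella the pathway patterns the directive axis, which runs across the main oral-aboral axis. TCF is the DNA-binding partner of β-catenin in canonical Wnt signalling, and a dominant negative form that cannot bind β-catenin keeps Wnt target genes off. Wnt and β-catenin pattern the oral-aboral axis of this animal and act in the early specification of its germ layers.

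The files name models by a JGI prediction set, a scaffold of the early genome assembly and a model number. None of the 21946 model numbers matched the 38762 rows of the RefSeq gene table for assembly jaNemVect1.1, so no member has a gene name or a known role here. The targeted genes, the components of both pathways and the markers of germ layers and cell types were not analysed for the same reason, and the knockdown was not checked in these counts. The members are identified by model number and by the scaffold that the model's name carries. CPM takes no account of transcript length, so levels are compared between libraries and not between models.

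Each library held 1936858 to 5994290 counts on gene models, with 16002 to 18902 models detected. Reads with no assigned reference sequence made up 42.0% to 58.9% of the counts with BMP24 KD, 39.6% to 41.1% with DnTCF and 49.2% to 87.8% with dextran. A pair of libraries stood apart. Dextran replicate 3 had the 87.8% unassigned share, against 58.9% or less in the other 8 libraries. BMP24 KD replicate 1 had a TMM scaling factor, edgeR's correction for library makeup, of 0.73, against 0.95 to 1.12 in the other 8 libraries. The main differences below are also given without them.

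Together the 278 models took 0.434% to 0.913% of the model counts in BMP24 KD libraries, 0.761% to 0.839% in DnTCF libraries and 2.01%, 2.86% and 7.82% in dextran replicates 1, 2 and 3. Most were of moderate level. The dextran mean ran from 5.16 to 8002 CPM with a median of 26.7 CPM and an interquartile range of 11.1 to 69.5 CPM. It was at least 1000 CPM for 9 models, 100 to 1000 CPM for 39, 10 to 100 CPM for 168 and under 10 CPM for 62. The last class is close to the counting limit in the smaller libraries, and 12 members had fewer than 10 counts in some dextran library.

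The median member stood at 28.3% of its dextran mean with BMP24 KD and at 36.1% with DnTCF, that is 3.54-fold and 2.77-fold lower. The BMP24 KD mean was at most 25% of dextran for 101 members, the DnTCF mean for 52, and both for 46. A level of at most 10% was reached by 16 members with BMP24 KD, by 13 with DnTCF and by 11 with both. The lower median and the larger count at 25% with BMP24 KD depended on replicate 1. Without it the median was 36.8% of dextran with BMP24 KD, beside 36.1% with DnTCF, and the BMP24 KD mean was at most 25% of dextran for 52 members, the same number as with DnTCF. The count at 10% moved little, with 14 members for BMP24 KD and 11 for both. Without dextran replicate 3, the level of at most 10% was reached by 5 members with BMP24 KD, by 12 with DnTCF and by 2 with both. With all 9 libraries, the great majority of members lay between 10% and 50% in both perturbations. The ceiling of 50% was set by the rule, and the models next to it show that it is no natural gap. Model 238062 was inside at 50.0% of its dextran mean in its higher perturbed group (129 CPM with BMP24 KD, 113 CPM with DnTCF and 258 CPM with dextran) and model 6927 at 49.9% (11.2, 11.2 and 22.4 CPM). Models 200890 and 68174 were outside, both at 50.3%. At the lower limit of level, models 84920 and 127828 were inside with dextran means of 5.16 and 5.21 CPM, and models 73384 and 20469 were outside with 4.90 and 4.81 CPM.

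**Figure D1:**
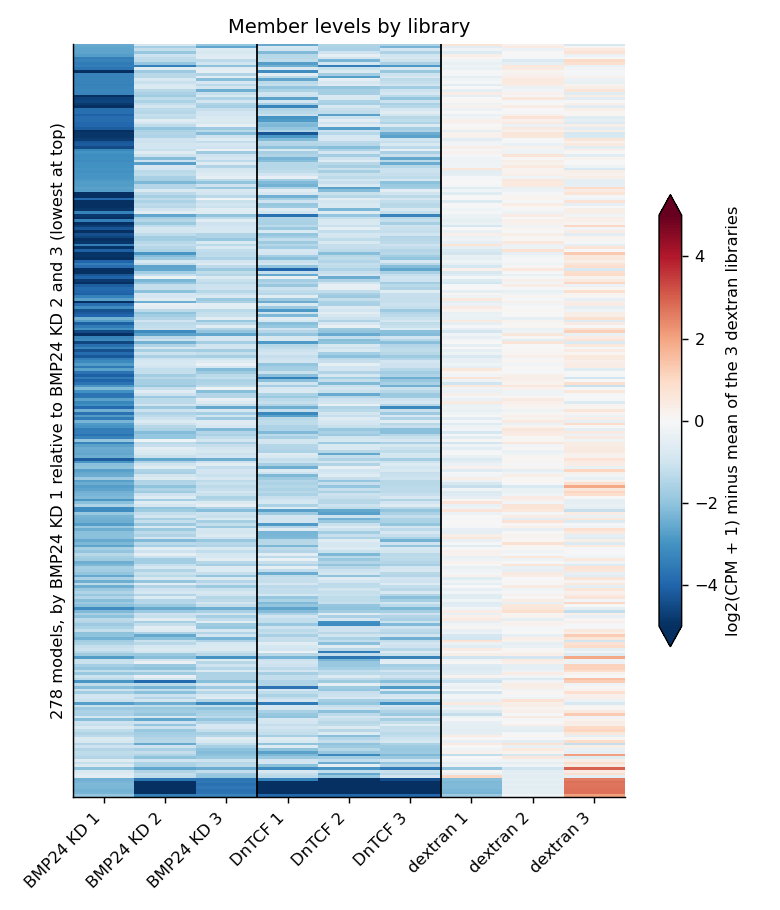
Level of the 278 models (rows) in the 9 libraries (columns), as log2(CPM + 1) minus the mean of the 3 dextran libraries for the same model, with blue for lower and red for higher, sorted by the ratio of BMP24 KD replicate 1 to the mean of BMP24 KD replicates 2 and 3. The 6 perturbed columns are below dextran by the choice of the models, and BMP24 KD replicate 1 is the darkest column over most rows, the lowest of all 9 libraries for 204 of the models.

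**Figure D2:**
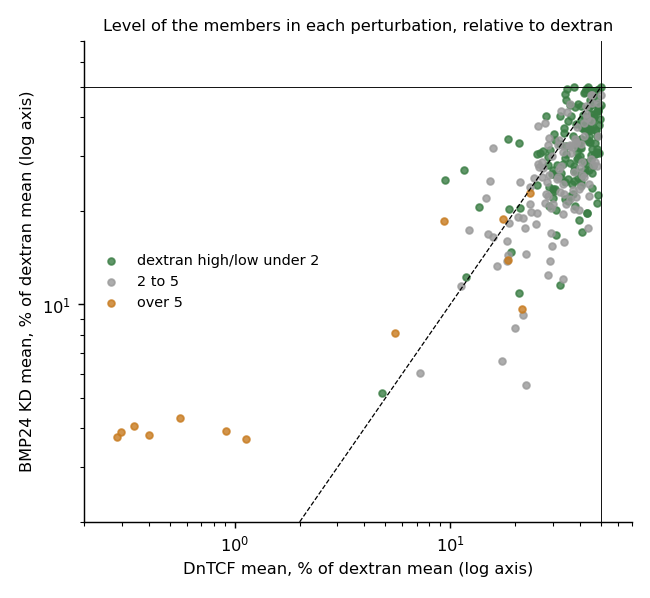
Mean of the BMP24 KD libraries against mean of the DnTCF libraries, each as a percent of the dextran mean on log axes, for 277 members (1 member at 0 in DnTCF is not drawn), coloured by the ratio of the highest to the lowest dextran library. The dashed line marks equal percentages and the thin lines the 50% limit of the rule. Most points lie at 10% to 50% on both axes, and a small group, mostly with a dextran ratio over 5, lies far lower in DnTCF.

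In the 5 models with the highest dextran mean, that mean was set above all by dextran replicate 3. Model 156933 on scaffold 13326 had 615, 52.1 and 236 CPM in the BMP24 KD libraries, 14.2, 35.6 and 18.4 CPM in the DnTCF libraries and 643, 2301 and 21062 CPM in the dextran libraries. Dextran replicate 1 was 1.05 times BMP24 KD replicate 1, and dextran replicate 3 was 32.8 times dextran replicate 1. The mean was 301 ± 287 CPM with BMP24 KD, 22.7 ± 11.4 CPM with DnTCF and 8002 ± 11341 CPM with dextran (SD, n = 3 each), or 26.6-fold and 352-fold lower than dextran. Without dextran replicate 3 the dextran mean was 1472 CPM and the differences were 4.89-fold and 64.7-fold. The BMP24 KD difference was 55.5-fold without BMP24 KD replicate 1 and 10.2-fold without both libraries.

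Model 9804 on scaffold 14562 had 303, 24.1 and 121 CPM with BMP24 KD, 8.34, 21.2 and 7.995 CPM with DnTCF and 317, 1015 and 9691 CPM with dextran. Model 79732 on scaffold 2 had 302, 39.9 and 108 CPM with BMP24 KD, 19.0, 18.6 and 20.9 CPM with DnTCF and 311, 1024 and 9113 CPM with dextran. The order of the libraries was nearly the same in each of these models. Model 156930, also on scaffold 13326, had 205, 15.99 and 78.7 CPM with BMP24 KD, 6.67, 17.6 and 7.33 CPM with DnTCF and 206, 763 and 6900 CPM with dextran. Model 9870 on scaffold 13417 had 157, 14.5 and 66.7 CPM with BMP24 KD, 4.84, 8.26 and 5.11 CPM with DnTCF and 167, 558 and 5391 CPM with dextran. In all 5 models dextran replicate 3 was the highest library, dextran replicate 2 the next, and BMP24 KD replicate 1 lay just under dextran replicate 1. That order rested on library sums. The TMM factor was 0.73 for BMP24 KD replicate 1 and 1.11 for dextran replicate 1. With TMM, DESeq2 or upper-quartile scaling, BMP24 KD replicate 1 lay above dextran replicate 1 in all 5, so none of them met the rule under those scalings.

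The 5 models varied together, 4 of them almost in proportion. The count of model 9804 was 43.4% to 59.4% of that of model 156933 across the 9 libraries, with a median of 49.3%. For model 156930 the range was 30.7% to 49.3% and for model 9870 it was 23.2% to 34.1%. Model 79732 had a median of 49.2% but reached 134% and 113% in DnTCF replicates 1 and 3. The sources used here do not give how reads with several matches were handled. Models with like sequence could share reads, and whether these 5 do was not tested. Their summed level was 1582, 147 and 611 CPM with BMP24 KD, 53.1, 101 and 59.7 CPM with DnTCF and 1644, 5661 and 52157 CPM with dextran. That is 25.4-fold lower than dextran with BMP24 KD and 278-fold lower with DnTCF, or 4.68-fold and 51.2-fold without dextran replicate 3. With BMP24 KD replicate 1 left out, the BMP24 KD difference was 52.3-fold, and it was 9.64-fold with both left out. The unassigned share of the same libraries was 58.9%, 42.0% and 43.5% with BMP24 KD, 41.1%, 40.3% and 39.6% with DnTCF and 49.2%, 57.1% and 87.8% with dextran. The 4 libraries with the highest unassigned share were also the 4 with the highest summed level, and the part of that share in the level was not tested.

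**Figure D3:**
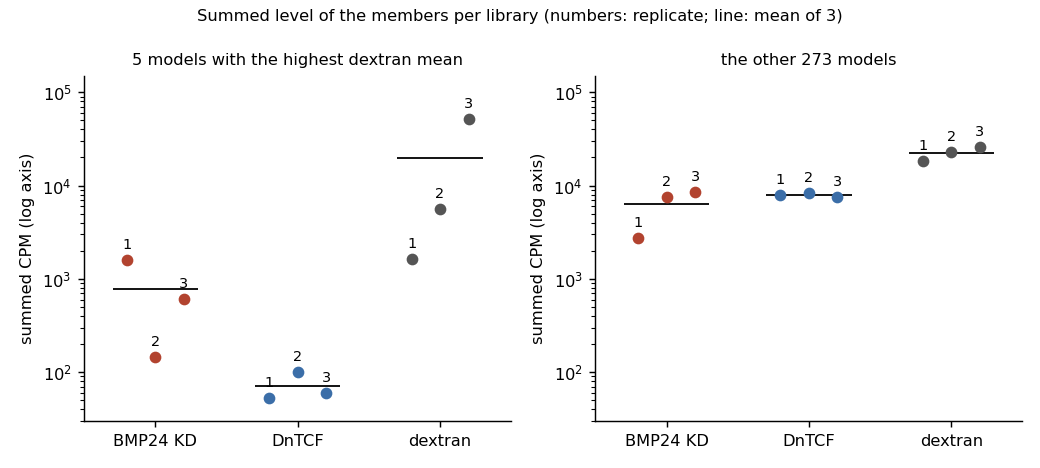
Summed CPM per library on a log axis for the 5 models with the highest dextran mean (left) and for the other 273 members (right), with points numbered by replicate and a line at the mean of 3. The 5 models span 1644 to 52157 CPM within dextran alone, whereas the other 273 span 18432 to 26067 CPM there, and in them BMP24 KD replicate 1 lies lowest at 2762 CPM.

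The other 273 members showed a steadier picture. Their summed level was 2762, 7582 and 8521 CPM with BMP24 KD, 7992, 8288 and 7550 CPM with DnTCF and 18432, 22950 and 26067 CPM with dextran. The means were 6288 ± 3090 CPM with BMP24 KD, 7943 ± 372 CPM with DnTCF and 22483 ± 3839 CPM with dextran (SD, n = 3 each). The sum was 3.58-fold lower than dextran with BMP24 KD and 2.83-fold lower with DnTCF. Without BMP24 KD replicate 1 the difference for BMP24 KD was 2.79-fold, and without that library and dextran replicate 3 the differences were 2.57-fold and 2.60-fold. Once BMP24 KD replicate 1 was left out, the summed level was thus about as low in one perturbation as in the other. The rule held both groups to the same limit against the same dextran mean, and that library was left out with its values known. The likeness of the sums is therefore a description and no test.

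Among the single models of high level, model 244010 on scaffold 104 had 98.2, 621 and 454 CPM with BMP24 KD, 425, 222 and 350 CPM with DnTCF and 1519, 1124 and 1187 CPM with dextran. Both perturbed groups stayed well under the lowest control, at means of 391 ± 267 CPM with BMP24 KD, 332 ± 103 CPM with DnTCF and 1276 ± 212 CPM with dextran (SD, n = 3 each), or 3.26-fold and 3.84-fold lower. Model 114661 on scaffold 127 had 18.5, 319 and 555.5 CPM with BMP24 KD, 371, 684 and 359 CPM with DnTCF and 897, 1316 and 1269 CPM with dextran. Its dextran libraries were nearly level and its BMP24 KD libraries differed widely among themselves, with means of 298 ± 269 CPM in BMP24 KD, 471 ± 184 CPM in DnTCF and 1161 ± 230 CPM in dextran. Model 200285 on scaffold 20, named after its values were seen, had 19.9, 151 and 159 CPM with BMP24 KD, 247, 169 and 216 CPM with DnTCF and 843, 1428 and 766 CPM with dextran. It was 9.20-fold lower with BMP24 KD and 4.80-fold lower with DnTCF, and its lowest control was 3.10 times its highest perturbed library.

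Model 205537 on scaffold 60 had 30.5, 375 and 520 CPM with BMP24 KD, 545, 567 and 408 CPM with DnTCF and 719, 1193 and 2313 CPM with dextran. Here the controls spanned a 3.22-fold range, and the difference depended on the highest of them. It was 4.57-fold with BMP24 KD and 2.78-fold with DnTCF, against 3.10-fold and 1.89-fold without dextran replicate 3, so that the DnTCF mean then lay above 50% of dextran. Model 39845 on the same scaffold had 10.3, 106 and 169 CPM with BMP24 KD, 150.5, 209 and 124 CPM with DnTCF and 223, 380 and 854 CPM with dextran. Its count was 27.6% to 36.9% of that of model 205537 in every library, the closest match of all 225 pairs of members named on a common scaffold. The 2 models may therefore not be independent observations.

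**Figure D4:**
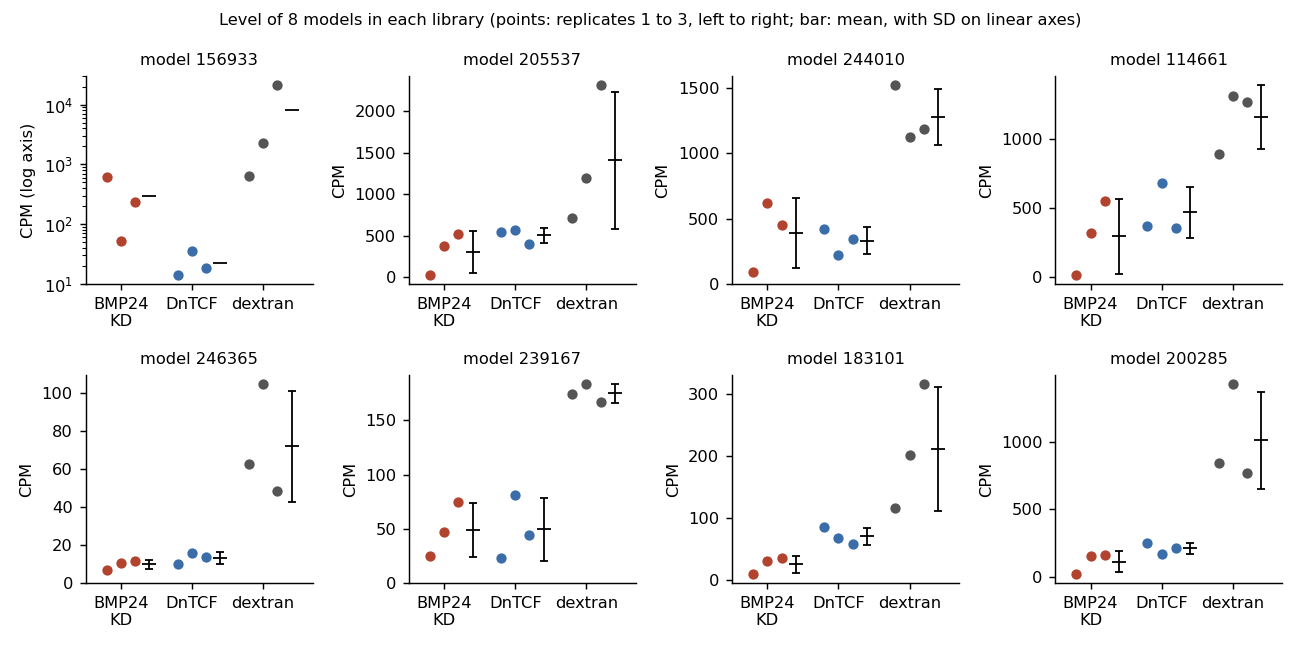
CPM of 8 members in each of the 9 libraries, with points for replicates 1 to 3 from left to right within each group and a bar for the mean, with its SD on linear axes. Model 156933 is on a log axis because dextran replicate 3 reached 21062 CPM, while in models 244010, 114661 and 239167 the 3 dextran libraries lie close together and above every perturbed library.

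How even the controls were divided the members. The ratio of the highest to the lowest dextran library had a median of 1.89. It was under 2 for 157 members (56.5%), between 2 and 5 for 107 and over 5 for 14. Of all 11240 models at 5 CPM, 68.9% had a ratio under 2, so level controls were less frequent among the members than among the models they were drawn from. The highest control was dextran replicate 3 for 148 members, replicate 2 for 91 and replicate 1 for 39. That is 53.2% in replicate 3, against 30.3% of all models at 5 CPM, and 14.03% in replicate 1, against 43.8%. The rule used these dextran levels, and a single high control raises the mean that the perturbed means are set against. The shares of all models given here are therefore a description and no test. All 14 members with a ratio over 5 were highest in dextran replicate 3, among them the 5 leading models and 9 others.

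Some of those 9 had few counts outside dextran replicate 3. Model 221825 on scaffold 1030 had 20, 7 and 6 counts with BMP24 KD, 12, 0 and 2 counts with DnTCF and 34, 42 and 587 counts with dextran, or 4.92, 1.53 and 1.56 CPM, 2.00, 0 and 0.444 CPM, and 6.12, 21.6 and 189 CPM. Model 116818 on scaffold 141 had 7, 4 and 4 counts with BMP24 KD, 2, 1 and 0 counts with DnTCF and 11, 9 and 268 counts with dextran. Both entered the set with a narrow gap between dextran replicate 1 and the highest perturbed library, and most of their control signal came from a single library. Model 116369 on scaffold 137, named after its values were seen, was at 0 in all 3 DnTCF libraries, the only such member. It had 2.95, 0.438 and 0.521 CPM with BMP24 KD and 3.24, 11.8 and 61.6 CPM with dextran. At a limit of 3 counts per library its DnTCF mean was at least 28.2-fold lower than the dextran mean, which covers counting error only, and at least 8.31-fold lower without dextran replicate 3. Models 221825, 116818 and 116369 shared the order of the controls seen in the leading models, with BMP24 KD replicate 1 not far under dextran replicate 1. The TMM factors of these libraries were 0.73 and 1.11. With TMM scaling BMP24 KD replicate 1 lay above dextran replicate 1 in all 3 models, so none of them met the rule under that scaling.

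At the other end stood members whose controls hardly differed. The 5 most even members with a dextran mean of at least 10 CPM were models 189433, 6927, 220670, 239167 and 138108. Model 239167 on scaffold 12 had 24.8, 47.3 and 75.01 CPM with BMP24 KD, 23.5, 81.1 and 44.9 CPM with DnTCF and 174, 184 and 167 CPM with dextran. Its means were 49.1 ± 25.1 CPM with BMP24 KD, 49.8 ± 29.1 CPM with DnTCF and 175 ± 8.51 CPM with dextran (SD, n = 3 each), which is 3.56-fold and 3.51-fold lower. The perturbed libraries varied more than the controls, yet the highest of them stayed at less than 50% of the lowest control. Model 189433 on scaffold 142 had 2.21, 16.2 and 15.9 CPM with BMP24 KD, 12.2, 13.9 and 11.5 CPM with DnTCF and 31.3, 30.8 and 29.7 CPM with dextran. Model 220670 on scaffold 556 had 0, 4.16 and 5.99 CPM with BMP24 KD, 4.34, 4.65 and 8.44 CPM with DnTCF and 12.4, 12.3 and 13.5 CPM with dextran. In the last pair of models BMP24 KD replicate 1 was far under its group. The other 5 perturbed libraries lay at 11.5 to 16.2 CPM in model 189433 and at 4.16 to 8.44 CPM in model 220670. Model 138108 on scaffold 422 had 0.984, 11.6 and 12.8 CPM with BMP24 KD, 12.3, 19.1 and 9.11 CPM with DnTCF and 27.7, 25.7 and 29.0 CPM with dextran. There too BMP24 KD replicate 1 was far under its group, and the other 5 perturbed libraries ran from 9.11 to 19.1 CPM. Model 6927 on scaffold 7510 was nearest to its controls of the 5, with 6.40, 14.9 and 12.2 CPM with BMP24 KD, 8.51, 13.4 and 11.5 CPM with DnTCF and 21.95, 23.6 and 21.6 CPM with dextran.

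For 25 members (8.99%) the lowest control was at least 2 times the highest of the 6 perturbed libraries, and 18 of these also had a dextran ratio under 2. This is a stricter form of the rule's own conditions, so no other of the 11240 models at 5 CPM could meet it. The widest separations, named after their values were seen, were in models 202862, 241327, 200285 and 246365. Model 202862 on scaffold 38 had 0, 0 and 1.56 CPM with BMP24 KD, 1.00, 0 and 0.444 CPM with DnTCF and 8.28, 14.4 and 7.42 CPM with dextran. It was nearly off in both perturbations, with at most 6 counts in a perturbed library and 46, 28 and 23 counts in the controls, and its lowest control was 4.75 times its highest perturbed library. Model 241327 on scaffold 43 had 0.246, 4.82 and 7.81 CPM with BMP24 KD, 1.67, 8.26 and 2.44 CPM with DnTCF and 27.5, 46.2 and 31.3 CPM with dextran. Its means were 4.29 ± 3.81 CPM with BMP24 KD, 4.12 ± 3.603 CPM with DnTCF and 35.0 ± 9.87 CPM with dextran (SD, n = 3 each), or 8.15-fold and 8.49-fold lower, and its lowest control was 3.33 times its highest perturbed library. In each of these 4 models all 3 controls were at least 3.04 times every perturbed library.

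The rule favours models that are low in the perturbed libraries, so the shares of all models given here for BMP24 KD replicate 1 are a description and no test. BMP24 KD replicate 1 was the lowest of all 9 libraries for 204 members (73.4%), against 47.5% of the 11240 models at 5 CPM. Its level was under 10% of the mean of BMP24 KD replicates 2 and 3 for 101 members (36.3%), against 7.42% of those models. The median member stood there at 22.6% of the mean of the other BMP24 KD libraries. It was at 0 for 55 members (19.8%), against 2.17% of the models at 5 CPM, and 53 of those 55 had counts in both other BMP24 KD libraries. A count of 0 in that library allows up to 0.738 CPM (3 counts), and the mean of the other BMP24 KD libraries had a median of 3.71 CPM over those 55 members. Model 208427 on scaffold 92, the highest of the 55, had 0, 17.96 and 46.9 CPM with BMP24 KD, 6.67, 39.8 and 17.1 CPM with DnTCF and 63.0, 71.8 and 62.6 CPM with dextran. Model 214960 on scaffold 214, named after its values were seen, had 0.738, 58.7 and 74.5 CPM with BMP24 KD, 80.1, 67.6 and 72.6 CPM with DnTCF and 95.7, 140 and 233 CPM with dextran. In both models the other BMP24 KD libraries overlapped the DnTCF libraries. The shift was not uniform, since 37 members, the 5 leading models among them, were higher in BMP24 KD replicate 1 than the mean of the other BMP24 KD libraries.

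With dextran replicate 3 left out, the rule held for 381 models, 203 of them members, and 75 members no longer met it. With dextran replicate 1 left out it held for 455 models, 264 of them members. With BMP24 KD replicate 1 left out it held for 252 models, of which 236 were members. A core of 131 members met the rule with any 1 of the 9 libraries left out and also with TMM, DESeq2 or upper-quartile scaling in place of library sums. Of that core, 79 had a dextran ratio under 2 and 2 had a ratio over 5.

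The rule set no order between the perturbations, but it limited their difference, since a model low in only one of them could not enter. The difference was tested with edgeR's quasi-likelihood test on all models, TMM scaling and Benjamini-Hochberg adjustment over the 13559 models that passed a filter on low counts. The filter kept 275 of the 278 members, and models 116818, 215259 and 127828 were not tested. No member differed between DnTCF and BMP24 KD at an adjusted p under 0.05, and the lowest adjusted p of a member was 0.911. The background was 0% of all tested models, and limma voom also called no member and 0% of all tested models. DESeq2 called no member, against 0.0137% of 21858 models. At an unadjusted p under 0.05, 4 members were higher with DnTCF (1.45%, against 0.664% of all tested models) and 6 were lower (2.18%, against 4.02%). Without BMP24 KD replicate 3, 19 members were higher (6.86%, against 2.83%). The DnTCF libraries lay all above the BMP24 KD libraries for 12 members (4.32%, against 6.25% of models at 5 CPM) and all below for 8 (2.88%, against 2.94%). Since the rule removed models low in a single perturbation, and edgeR called 0 of all tested models, these shares do not show that the perturbations act alike on the members.

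The median log2 difference of DnTCF from BMP24 KD was 0.18 over the members and -0.03 over all tested models, and 181 of the 275 members were above 0. This depended on single libraries. Without BMP24 KD replicate 1 the median was -0.11 and 118 of 277 members were above 0. Without DnTCF replicate 2 the median was 0.07 and 150 of 277 members were above 0. Without BMP24 KD replicate 3 the median was 0.55. Against the mean of BMP24 KD replicates 2 and 3, the DnTCF mean was higher for 112 members (40.3%), compared with 47.5% of models at 5 CPM.

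The 3 members with the smallest p for a higher level with DnTCF were models 183101, 197876 and 79749. Model 183101 on scaffold 44 had 85.9, 67.6 and 58.9 CPM with DnTCF and 10.3, 31.1 and 35.2 CPM with BMP24 KD, beside 117, 202 and 315 CPM with dextran. The DnTCF libraries lay between the other groups without overlap, with a log2 difference from BMP24 KD of 1.40 ± 0.45 (SE; edgeR adjusted p = 0.911). Model 197876 on scaffold 7 had 10.01, 7.74 and 5.11 CPM with DnTCF and 3.44, 2.19 and 3.91 CPM with BMP24 KD, beside 17.1, 17.4 and 21.3 CPM with dextran. Model 79749 on scaffold 2 had 11.3, 13.4 and 12.7 CPM with DnTCF and 4.18, 6.13 and 9.12 CPM with BMP24 KD, beside 23.8, 28.7 and 29.7 CPM with dextran. Their log2 differences were 1.07 ± 0.46 and 0.82 ± 0.36 (SE; edgeR adjusted p = 0.911 each), and both showed the same 3 steps with even controls. A further model, 246689 on scaffold 234, had 300, 202 and 183 CPM with DnTCF and 55.6, 124 and 165 CPM with BMP24 KD, beside 422, 783 and 344 CPM with dextran, at a log2 difference of 0.90.

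The 3 members with the smallest p for a lower level with DnTCF were leading models. The log2 difference of DnTCF from BMP24 KD was -4.09 ± 1.34 for model 9870, -4.08 ± 1.34 for model 156933 and -3.95 ± 1.35 for model 9804 (SE; edgeR adjusted p = 0.911 each). Without BMP24 KD replicate 1 they were -2.82 for model 9870, -2.69 for model 156933 and -2.61 for model 9804. The other 3 with an unadjusted p under 0.05 were models 79732, 156930 and 116369, so the leading 5 made up 5 of the 6, and they may not be independent observations.

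Against dextran, edgeR called no member lower at an adjusted p under 0.05 in either perturbation, and 0% of all tested models. The unadjusted p was under 0.05 for 213 members with BMP24 KD, against 4.76% of all tested models, and for 184 members with DnTCF, against 2.94%. DESeq2 called 78 members lower with BMP24 KD, against 0.793% of 14625 models, and 40 with DnTCF, against 0.315%. Limma voom called no member in either comparison, and 0% of all tested models. The members were chosen on these same differences, so nothing is read from these shares.

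The members were spread over 156 scaffolds, and 90 were the only member on theirs. Scaffold 2 held the most, 8 of 164 models at 5 CPM, and scaffold 213 had the highest share among scaffolds with at least 20 such models. Scaffold 213 held 7 members among 23 models at 5 CPM (30.4%), and 9 of the 23 had both perturbed means below dextran, against 38.1% of all models at 5 CPM. Of 172 scaffolds with at least 20 such models, 4 had over 10% members, namely 213, 308 at 15.0%, 137 at 12.5% and 151 at 10.3%. The scaffold was picked for its share, so this is a description with no test.

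**Figure D5:**
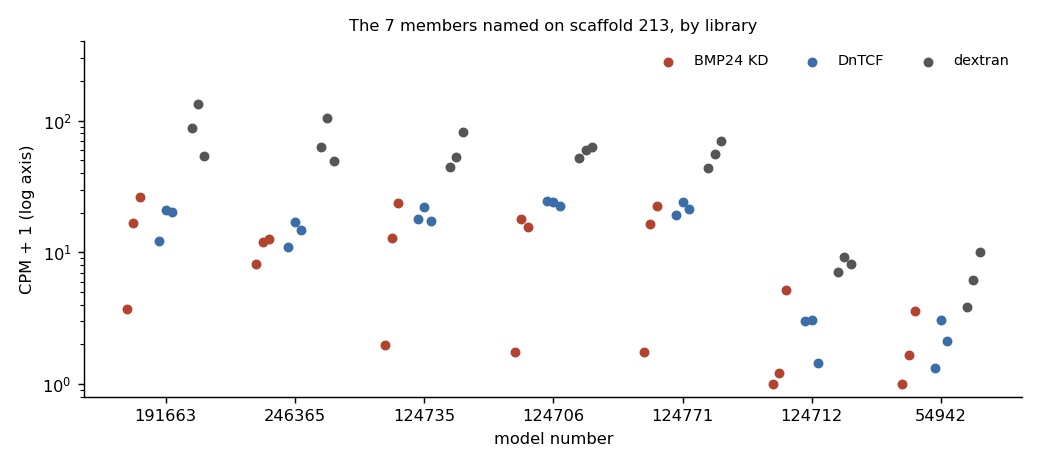
CPM + 1 on a log axis for the 7 members named on scaffold 213, with the 3 libraries of BMP24 KD, DnTCF and dextran side by side for each model. Models 124735, 124706 and 124771 show nearly the same picture, with BMP24 KD replicate 1 under 1 CPM, while model 246365 has all 6 perturbed libraries at 7.14 to 16.01 CPM.

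On scaffold 213, model 246365 had 7.14, 10.95 and 11.7 CPM with BMP24 KD, 10.01, 16.01 and 13.8 CPM with DnTCF and 62.6, 105 and 48.7 CPM with dextran. Its perturbed libraries were close to each other, BMP24 KD replicate 1 included, at means of 9.94 ± 2.46 CPM with BMP24 KD, 13.3 ± 3.03 CPM with DnTCF and 72.0 ± 29.1 CPM with dextran (SD, n = 3 each), or 7.25-fold and 5.43-fold lower. Model 191663 had 2.71, 15.8 and 25.3 CPM with BMP24 KD, 11.2, 20.1 and 19.1 CPM with DnTCF and 87.3, 133 and 52.9 CPM with dextran, with the same order of the controls. Models 124735, 124706 and 124771 formed a second group with another order of the controls. Model 124735 had 0.984, 11.8 and 22.7 CPM with BMP24 KD, 16.9, 21.2 and 16.4 CPM with DnTCF and 43.5, 51.8 and 80.6 CPM with dextran. Model 124771 had 0.738, 15.6 and 21.4 CPM with BMP24 KD, 18.4, 23.2 and 20.2 CPM with DnTCF and 42.6, 54.4 and 68.7 CPM with dextran, at 75% to 131% of the level of model 124735 in each library. Model 124706 had 0.738, 16.9 and 14.6 CPM with BMP24 KD, 23.5, 23.2 and 21.5 CPM with DnTCF and 50.9, 59.0 and 62.6 CPM with dextran. Whether these 3 models share reads was not tested. Models 124712 and 54942 were low, with dextran means of 7.14 and 5.68 CPM, and both were at 0 in BMP24 KD replicate 1.

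Members on a common scaffold were not much more alike than others. The SD of the log2 ratio of a pair over the 9 libraries had a median of 0.78 for 225 pairs on a common scaffold and 0.82 for 38278 pairs on different scaffolds, and it was under 0.5 for 12.4% and 10.5% of them. A pair of neighbours in the fgenesh1_pg prediction numbering of scaffold 87, models 208034 and 208035, were low in all 6 perturbed libraries. Model 208034 had 0.738, 8.32 and 14.8 CPM with BMP24 KD, 2.67, 18.6 and 8.44 CPM with DnTCF and 67.5, 80.6 and 32.2 CPM with dextran. Model 208035 had 3.94, 11.6 and 8.86 CPM with BMP24 KD, 5.51, 6.20 and 9.99 CPM with DnTCF and 66.8, 60.0 and 18.1 CPM with dextran. Their ratio varied from 33.3% to 533% between libraries, so they were not in proportion as models 205537 and 39845 were. The other such pair of neighbours was 201371 and 201372 on scaffold 27.

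By prediction set, 24.1% of members came from fgenesh1_pg, against 16.1% of the models at 5 CPM, and 12.6% from gw, against 8.46%. The set estExt_fgenesh1_pg gave 20.1% of members, against 25.2%. The sets estExt_gwp and estExt_GenewiseH_1 gave 8.27% and 4.68%, against 10.1% and 7.44%, and e_gw gave 28.1%, against 25.3%. Names that begin with estExt mark models that JGI extended with expressed sequence tags. This is a difference in how models were predicted, and its part in their counts was not tested.

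Model 244010 had the highest dextran mean among members with even controls, and the models most like it over the 9 libraries were searched among 21945 others by Pearson correlation of log2(CPM + 1). The closest was model 61545 (r = 0.996), followed by models 80887 and 173865 (r = 0.97 each) and models 231809 and 9383 (r = 0.96 each). Model 61545 had means of 44.02 CPM with BMP24 KD, 44.2 CPM with DnTCF and 81.3 CPM with dextran, so it had the same profile with a smaller difference and missed the 50% limit. Of these 5, model 9383 on scaffold 8612 was a member, with 0, 5.04 and 4.17 CPM with BMP24 KD, 1.501, 1.55 and 2.00 CPM with DnTCF and 8.64, 7.18 and 11.3 CPM with dextran. Among the 50 closest models, 20 were members, while members were 1.27% of all models. Model 244010 is itself a member and the rule used the same 9 libraries, so members near it follow in part from the choice. The correlations rest on 9 libraries that share the same 3 controls, and they are given as a description.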

How the data were processed

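The authors deposited unnormalized read counts, 1 table for each of the 9 libraries with a row per reference sequence. Per the submitters' processing notes the authors used FastQC and Bowtie2 2.2.0. Per the row names of the deposited tables, the reference held JGI Nemve1 models, 18S and 28S rRNA, and a sequence of the mitochondrion. Counting program, strand setting and treatment of multiply matching reads: not given in the sources used here. A sequence absent from a table was entered as 0 (the lowest listed count was 1). The row that names no sequence held 39.6% to 87.8% of a library's counts and was left out, as were the rRNA and mitochondrial rows. No pair of libraries was identical (highest r on log2 CPM 0.98).

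CPM used each library's sum over models. The model set, the rules for naming models, the lists and the alternatives were chosen with earlier results of these data known. Named by rule were the 8 members with the highest dextran mean, the 6 with the lowest ratio of perturbed to dextran mean, the 3 smallest p-values each way between the perturbations, the 5 with the most even controls and those next to a threshold. Every other model was named after its values were seen. Genes listed by name for both pathways, axes, germ layers and cell types were not tested, since no model number was paired with a name.

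Counts were tested with edgeR 4.0.16 (R 4.3.3; filterByExpr by group, TMM, quasi-likelihood F-test on all 9 libraries with 1 mean per group, Benjamini-Hochberg adjustment, adjusted p under 0.05). Standard errors came from the F statistic. Limma 3.58.1 (voom), DESeq2 1.42.0 (Wald test), other scalings and filters, a replicate block, fits on 6 libraries and fits leaving out libraries were alternatives. Descriptions used Python 3.11.15. Limits for a count of 0 (3 counts) cover counting error only.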

Additional observations from a re-analysis of the deposited data

Results flagged for a closer look

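Outside the gene models, counts on ribosomal RNA were higher in every BMP24 KD library than in every dextran library. Counts on 28S rRNA averaged 8211 CPM of model counts with BMP24 KD (5076 to 10203) and 3549 CPM with dextran (2530 to 4891). Counts on 18S rRNA averaged 6049 CPM with BMP24 KD (3483 to 8791) and 1995 CPM with dextran (1237 to 3049). The DnTCF libraries had 4384, 6269 and 8302 CPM on 28S and 1798, 3424 and 4343 CPM on 18S, and they overlapped the BMP24 KD and the dextran libraries for both. Mitochondrial counts were 498, 278 and 60.4 CPM with BMP24 KD, 31.7, 24.3 and 41.1 CPM with DnTCF and 75.6, 8.72 and 59.0 CPM with dextran, with the highest value in BMP24 KD replicate 1. The part of these differences in the member levels was not tested. These rows were not part of the library sums behind the member levels. With them in the sums, the rule held for 283 models, all 278 members among them.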

How the results depend on the processing

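The number of models that met the rule was 278. It was 245 with TMM scaling, 252 with DESeq2 size factors and 257 with upper-quartile scaling, 103 and 46 with perturbed means held to a stricter limit (the dextran mean divided by 3 or by 4), and 506 with overlap allowed. Leaving out each library in turn gave 252 to 455 (455 without dextran replicate 1). Without both BMP24 KD replicate 1 and dextran replicate 3 it was 325, of which 173 were members.

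Against dextran, edgeR called 0 members in either perturbation. For BMP24 KD the count was 78 with DESeq2 (of 116 models called lower in all), 3 with no filter (of 3), 11 without both divergent libraries (of 15) and 0 to 1 with 1 library left out. For DnTCF it was 40 with DESeq2 (of 46), 11 with no filter (of 13), 27 without both (of 36) and 0 to 2 with 1 library left out (2 without BMP24 KD replicate 1, of 2). The rule used these differences, so nothing is read from the counts. Between DnTCF and BMP24 KD, 0 members were called under each alternative run. The 4 members higher with DnTCF at an unadjusted p under 0.05 (of 90 such models) became 2 in a fit on 6 libraries (of 49) and 1 to 19 with 1 library left out. These were 19 without BMP24 KD replicate 3 (of 400), 7 without BMP24 KD replicate 2 (of 146), 2 without DnTCF replicate 1 (of 41), 2 without dextran replicate 2 (of 58) and 1 without DnTCF replicate 2 (of 75). The 6 lower (of 545) became 2 with limma voom (of 244), 12 without both divergent libraries (of 433) and 2 to 7 with 1 library left out, with 2 without BMP24 KD replicate 1 (of 301) and 3 without DnTCF replicate 1 (of 326). The causes were not tested.

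With the replicate number as a block, 8 members had a higher level with DnTCF and 3 had a lower level by unadjusted p (of 101 and 300 models), and 0 were called in each comparison. The deviations of same-numbered libraries from their group means had correlations of -0.20 to 0.31, over 0.1 in 3 of 9 pairs. Differently numbered libraries were not compared, so these values cannot decide whether the numbers pair samples. The main fit used no pairing. Over 760 alternative values for 17 named models, 0 reversed and 30 newly passed the threshold. Most of these values, and all 30, were differences from dextran, whose direction the rule had set. The rest were differences between the perturbations, in models named for their smallest p in that comparison, so the choice had set their direction too. The absence of reversals is therefore no support. The median log2 difference of all models between DnTCF and BMP24 KD lay between -0.05 and 0.09 over the scalings. With 3 libraries per group, counts under 10 in some control for 12 members limit what can be said of them.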
